A study of Mus musculus with 16 samples.

Results

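Liver genes for 8 acute phase plasma proteins were followed across 16 arrays: Fga, Fgb and Fgg, which encode the 3 chains of fibrinogen, Hp (haptoglobin), Hpx (hemopexin), Cp (ceruloplasmin), and Itih3 and Itih4 (of the inter-alpha-trypsin inhibitor heavy chain family). They were taken by gene name from the transcript probes, and the 8 are among 18474 genes that passed the filter on dim probes and were tested. All 8 passed it through signal above background on all 16 arrays. Each gene had 1 probe with 1 spot per array. Hpx appears on the array under its older name Hpxn and was matched through its RefSeq accession.

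The study compared livers of male C57BL/6 mice, 3 months old, of 2 genotypes, wild type and GR knockout. Each genotype was either left without treatment or given dexamethasone, a synthetic glucocorticoid that activates the glucocorticoid receptor (GR, encoded by Nr3c1). Total RNA was labelled with Cy3 and hybridised 1 sample per array, with 4 arrays in each of the 4 groups. The treatment protocol calls the knockout a liver knockout and speaks of a vehicle where the sample sources speak of no treatment, and the titles of both knockout groups carry the word PBS. How much dexamethasone was given, by which route and for how long, which part of the receptor gene is deleted and what drives its deletion are not given in the labels. No label states that replicates came from separate mice, so the p-values measure the spread between these samples, which may in part be technical. Slides and scans held 1 group each, and a difference between slides therefore cannot be told apart from a difference between groups. The number of arrays limits the precision.

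In the acute phase response hepatocytes change their output of plasma proteins after injury or infection, mainly under interleukin-6, which acts through STAT3, and interleukin-1, with glucocorticoids as a known cofactor. Fibrinogen is cleaved by thrombin to fibrin, the scaffold of a clot. Haptoglobin binds free haemoglobin, hemopexin binds free heme, ceruloplasmin carries copper and oxidises ferrous iron, and the heavy chain made from Itih3 can be transferred to hyaluronan in the extracellular matrix, which is not known of the Itih4 product.

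The genes lie at 5 places in the genome. On GRCm38.p6, Fgg (chromosome 3, 83007724 to 83015056), Fga (83026153 to 83033627) and Fgb (83042246 to 83049863) are neighbours, and Cp lies on the same chromosome (19956933 to 20009750). Hpx lies on chromosome 7 (105591611 to 105600116) and Hp on chromosome 8 (109575128 to 109579172). Itih4 (chromosome 14, 30886476 to 30901986) and Itih3 (30908572 to 30923787) are adjacent. The probes have positions on the older mm7 build, for example chromosome 3, 83136441 to 83136500 for Fga and chromosome 14, 28338399 to 28338458 for Itih3. Which exon or untranslated region a probe matches was not analysed here.

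The 250 bases before the start of transcription are shown for the fibrinogen genes, since the chains are made as a set, and for Itih4, the neighbour of Itih3, the gene that passed the test. The RefSeq table (GRCm38.p6) held 8 such stretches for 7 of the 8 genes, 2 of them for Cp and none for Hp. The Itih3 stretch belongs to a start inside the gene, with 200 of its 250 bases within the gene span given above, and is not printed. Those of Cp lie within its span for 121 and 250 bases, and the other 5 lie outside theirs. Both strands were searched for CTGGGA (the core of type 2 interleukin-6 elements), TTGCNNAA (C/EBP, a hepatocyte and acute phase factor), TTCNNNGAA (STAT factors) and the inverted repeat of the glucocorticoid response element. Matches are in capitals, and the sequences run 5′ to 3′ on the strand of the gene.
Fga, chr3:83025903-83026152, plus strand: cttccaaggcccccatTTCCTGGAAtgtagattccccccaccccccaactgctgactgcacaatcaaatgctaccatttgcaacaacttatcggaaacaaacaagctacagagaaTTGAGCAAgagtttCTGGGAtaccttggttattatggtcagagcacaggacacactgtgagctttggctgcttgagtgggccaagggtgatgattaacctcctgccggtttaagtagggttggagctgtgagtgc
Fgb, chr3:83049864-83050113, minus strand: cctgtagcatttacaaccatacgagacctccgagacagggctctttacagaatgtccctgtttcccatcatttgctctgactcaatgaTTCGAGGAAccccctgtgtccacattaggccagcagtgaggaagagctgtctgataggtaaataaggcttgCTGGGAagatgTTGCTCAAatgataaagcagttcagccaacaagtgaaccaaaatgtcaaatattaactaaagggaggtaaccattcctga
Fgg, chr3:83007474-83007723, plus strand: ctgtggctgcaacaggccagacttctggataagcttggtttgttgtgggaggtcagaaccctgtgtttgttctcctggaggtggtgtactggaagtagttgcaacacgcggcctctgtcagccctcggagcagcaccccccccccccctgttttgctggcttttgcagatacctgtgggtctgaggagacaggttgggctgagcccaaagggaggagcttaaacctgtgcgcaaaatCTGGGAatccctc
Itih4, chr14:30886226-30886475, plus strand: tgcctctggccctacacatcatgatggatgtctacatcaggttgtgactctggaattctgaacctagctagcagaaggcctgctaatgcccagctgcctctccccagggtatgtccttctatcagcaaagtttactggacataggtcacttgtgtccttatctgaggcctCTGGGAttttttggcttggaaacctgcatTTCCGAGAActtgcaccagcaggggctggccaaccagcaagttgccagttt

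Fga and Fgb each held 1 match to CTGGGA, 1 to TTGCNNAA and 1 to TTCNNNGAA. The Fgg stretch held CTGGGA only, starting 13 bases before the start of transcription. Itih4 held CTGGGA and TTCNNNGAA, and the stretch inside Itih3 held none of the 4 motifs. Of the 8 stretches, CTGGGA was present in 5, TTGCNNAA in 4, TTCNNNGAA in 3 and the glucocorticoid response element in 0. Cp had CTGGGA in one of its stretches and TTGCNNAA in the other. Among 32851 promoter stretches of the same length, the shares with a match were 27.0%, 9.56%, 7.02% and 0.387%. A match is a description of the letters and not of binding, and a window without a match says nothing about the factor.

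The labels and the tissue were checked first. Nr3c1 was 3.98-fold lower in the untreated knockout (limma adjusted p = 1.8e-05) and 3.91-fold lower in the knockout given dexamethasone (adjusted p = 6e-06), with no overlap between genotypes. Whether its probe lies in the deleted part was not analysed here. Of 9 hepatocyte markers tested, 0 were below background throughout, and their summed linear level (relative to the 75th percentile of the array) was 2685 to 3926 in untreated wild type and 2954 to 3419 in wild type given dexamethasone. It was 2581 to 3133 and 2453 to 2745 in the corresponding knockout groups. In bulk RNA, fewer hepatocytes and less RNA per hepatocyte cannot be told apart.

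All 8 genes were abundant, from Itih4, whose mean level was above that of 91.7% of the tested genes, to Hp, above 99.96%. Levels are log2 signals relative to the 75th percentile of the array, so that 0 is the signal of that percentile. Mean signals of a spot ranged from 63.2% to 100.01% of the scanner ceiling for Hp, 53.2% to 97.3% for Fgb, 37.2% to 77.9% for Fgg and 26.3% to 48.5% for Hpx. They were 9.07% to 14.8% for Cp, 6.81% to 22.3% for Itih3, 0.964% to 10.4% for Fga and 0.659% to 5.07% for Itih4. Hp was saturated on 4 of 4 arrays of wild type given dexamethasone and on 0 of the other 12. That group therefore has only a lower bound for Hp. The limma fit shares 1 spread per gene over the 4 groups. The spread of the saturated group therefore also enters the intervals and p-values of Hp in the other comparisons. Fgb was saturated on 1 untreated wild-type array.

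**Figure D1:**
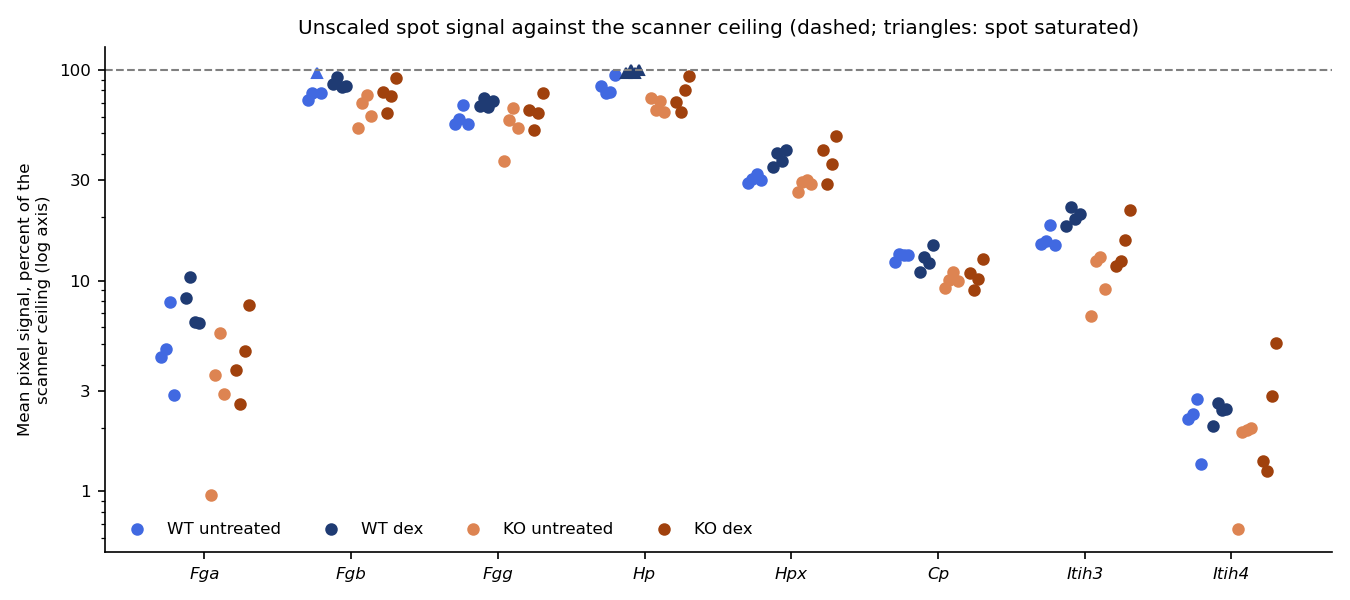
Mean pixel signal of each spot as a percent of the scanner ceiling (log axis) for the 8 genes, 1 point per array, coloured by group, with saturated spots as triangles. The 4 Hp spots of wild type given dexamethasone lie between 96.3% and 100.01% of the ceiling, while Cp, Itih3, Fga and Itih4 stay under 22.3% on all arrays.

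Untreated wild-type array 4 and untreated knockout array 1 stood apart in scale. Their 75th percentiles were 383.7 and 295.8 signal units, against 502.7 to 662.6 on the other 14 arrays. On both, the scaled levels of bright genes such as Hp and Hpx were high while those of Fga and Itih4 were low within their group. Results are therefore also given without these 2 arrays, an alternative chosen after the data were seen.

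**Figure D2:**
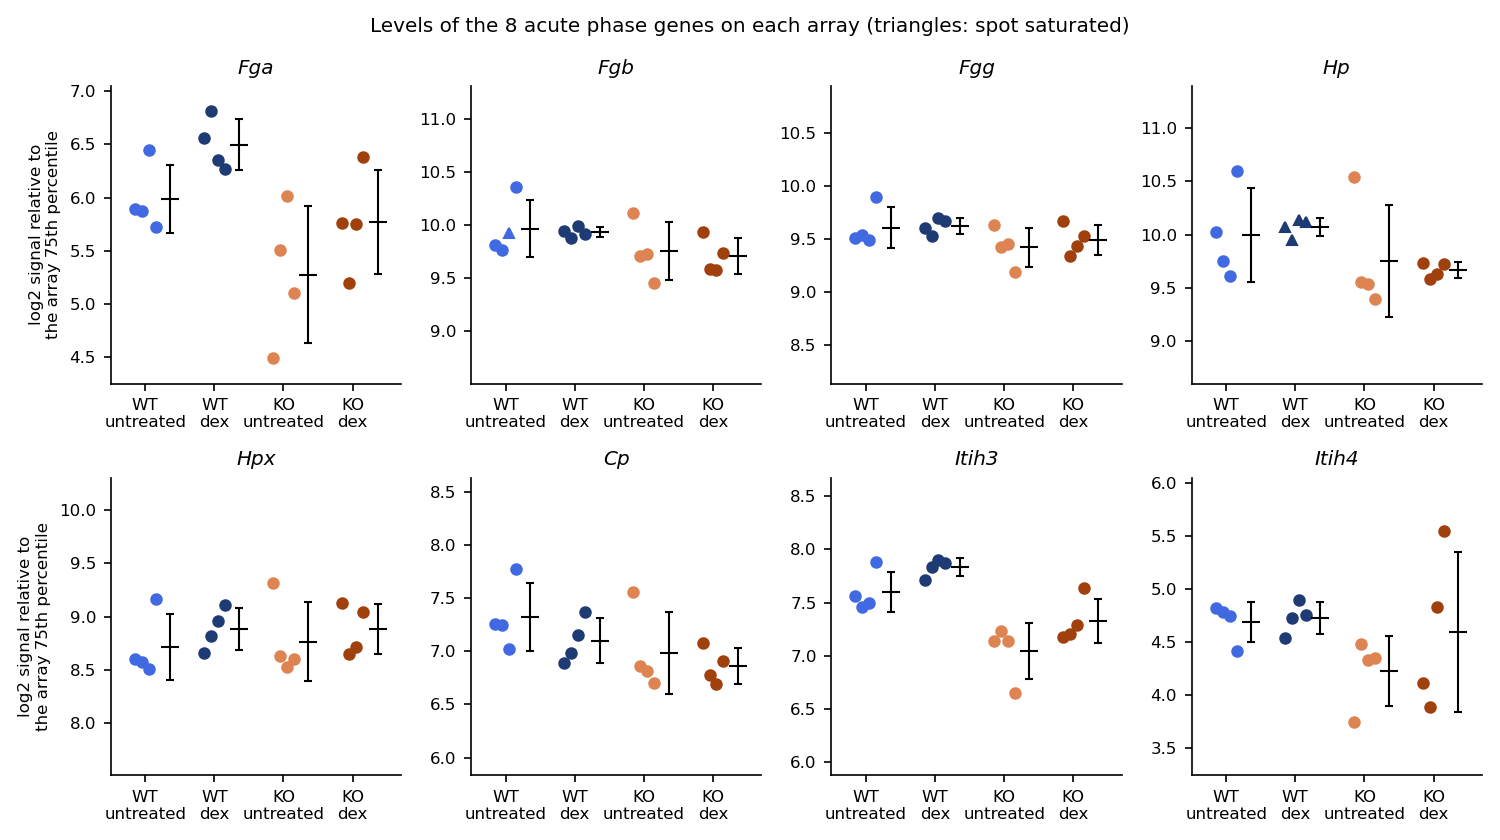
Log2 level of each gene (relative to the 75th percentile of the array) on every array, by group, with the group mean and SD (n = 4) as bars and saturated spots as triangles. The 2 genotypes separate without overlap for Itih3 in both treatments, at 7.46 to 7.88 against 6.65 to 7.23 without dexamethasone.

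Dexamethasone in wild type asks which of these genes respond to the hormone when the receptor is present. None of the 8 passed the test. Hp was saturated throughout the treated group and has only a bound. Estimates of the other 7 ran from -0.22 to 0.51 on the log2 scale, 5 of 7 above 0, with a median of 0.04 beside -0.03 over all genes. By limma with Benjamini-Hochberg adjustment, 0 of the 8 were called (adjusted p from 0.297 to 0.950), beside 11.9% of all tested genes, and 0 had an unadjusted p under 0.05, beside 26.3%. For 0 of the 8 did the arrays of the groups stay apart, beside 22.1% of all genes.

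Among the fibrinogen chains, Fga had the largest estimate. Its levels were 5.89, 5.88, 6.45 and 5.72 on the untreated wild-type arrays 1 to 4 and 6.56, 6.81, 6.35 and 6.27 on the dexamethasone arrays. Untreated array 3 lay above dexamethasone arrays 3 and 4, so the groups overlapped. The log2 difference was 0.51 (SE 0.30, 95% interval -0.13 to 1.15, adjusted p = 0.297). For Fgb and Fgg the differences were -0.04 (95% interval -0.37 to 0.30) and 0.02 (-0.26 to 0.29). Rises above 1.23-fold for Fgb or 1.22-fold for Fgg lie outside these intervals, while for Fga a rise of up to 2.22-fold lies inside. Fgb, with 1 saturated spot in the untreated group, was at 9.77 to 10.36 untreated and 9.88 to 9.99 with dexamethasone.

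Haptoglobin could not be sized in this comparison. Hp levels were 10.02, 9.75, 9.61 and 10.60 on untreated wild-type arrays and 10.07, 9.95, 10.14 and 10.11, all saturated, after dexamethasone. Untreated array 4, of low 75th percentile, was the highest of the 8. In the saturated spots 12.5% to 89.8% of pixels were at the ceiling. The group means were 9.996 and 10.067, so the measured mean was 1.05-fold higher with dexamethasone (limma adjusted p = 0.884), a difference within the spread. Saturation hides part of the treated signal, but the sign of the difference is not fixed by these arrays. Leaving out 1 array at a time, the measured log2 difference ran from -0.06 to 0.27. Without the 2 arrays of low 75th percentile the measured log2 difference, also a bound, was 0.27. Unscaled signals were 469152 to 596698 untreated and 581008 to 613362 with dexamethasone.

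Hpx, the heme carrier, was at 8.50 to 9.17 untreated and 8.65 to 9.11 with dexamethasone (difference 0.17, 95% interval -0.25 to 0.60). Cp, the copper oxidase, had the lowest estimate of the 8, -0.22 (95% interval -0.65 to 0.20), at 7.03 to 7.78 and 6.89 to 7.37. Itih3 differed by 0.23 (95% interval -0.09 to 0.55) and Itih4 by 0.04 (-0.57 to 0.65). In each of these 4 genes the arrays of the groups overlapped. Without untreated array 4, Hpx was at 0.32 and Cp at -0.07.

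Other acute phase genes of the same livers did respond. Of 23 tested positive acute phase genes outside the 8, 8 rose in wild type given dexamethasone and 0 fell, beside 5.22% of all tested genes called higher and 6.66% called lower, with a list median of 0.46 beside -0.03 for all genes. Lcn2, an iron-siderophore binding protein, rose by 6.44 on the log2 scale (SE 0.93, adjusted p = 0.000868). The serum amyloid A genes Saa3, Saa1 and Saa2 rose by 3.51, 3.27 and 3.21. Orm1, for an acid glycoprotein, and Crp were at 0.46 and 0.43 (adjusted p = 0.125 and 0.401). The lists were assembled with results of these data known, so their direction is no independent evidence, and the difference between the lists was not tested.

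Of 10 negative acute phase genes, 0 were called in this comparison, with 1 at an unadjusted p under 0.05 and a median of -0.19. Of 11 genes in fibrin formation and lysis, 1 rose (Thbd, thrombomodulin, by 1.67) and 1 fell (Serpinf2, the plasmin inhibitor, by 0.44). Of 10 genes of haemoglobin and heme clearance, 1 rose (Hmox2, a heme oxygenase, by 0.69). With 1 or 2 calls each, these lists lie near the share of all genes by calls. At an unadjusted p under 0.05 the heme list held 5 of 10 genes and the fibrin list 3 of 11, beside 26.3% of all genes. Copper handling had 0 of 8 called and the inter-alpha-trypsin partners 0 of 4, of which Ambp encodes the light chain. At an unadjusted p under 0.05 these 2 lists held 2 and 0 genes.

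Receptors upstream of the acute phase genes were called in this comparison. Of 21 genes of interleukin-6 and interleukin-1 signalling, 4 rose and 2 fell, beside 5.22% of all tested genes called higher and 6.66% called lower. Il6ra, which encodes the interleukin-6 receptor chain, rose by 1.15 (95% interval 0.59 to 1.71, adjusted p = 0.0114), from -0.88 to 0.03 untreated to 0.62 to 1.13 with dexamethasone. Il1r1, the signalling receptor of interleukin-1, rose by 1.79 (adjusted p = 0.0208), and Socs1, a feedback inhibitor, fell by 1.35. Il1r2, a decoy receptor, rose by 1.80. It cleared the background on 4 of 4 arrays with dexamethasone but 2 of 4 without, and by normexp background correction its change was 0.42 (adjusted p = 0.559). Leaving out 1 array at a time ended the calls of Il1r1 and Il1r2 in 4 of 8 cases each (adjusted p up to 0.076 and 0.070). Stat3 was at -0.27 (95% interval -1.04 to 0.49) and Socs3 at -0.22 (-2.15 to 1.71).

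Of 12 hepatocyte factors known at acute phase promoters, 2 rose and 1 fell, beside 5.22% and 6.66% of all tested genes. Cebpd, the C/EBP form known for acute phase induction, rose by 1.12 and Hnf4a, a nuclear receptor that maintains hepatocyte genes, by 0.59, while Ppara, the fatty acid oxidation regulator, fell by 0.88. Without 1 array the call of Cebpd was lost in 6 of 8 cases (adjusted p up to 0.067) and that of Hnf4a in 7 of 8 (up to 0.117). Cebpb was at 0.32 (95% interval -0.12 to 0.76).

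**Figure D3:**
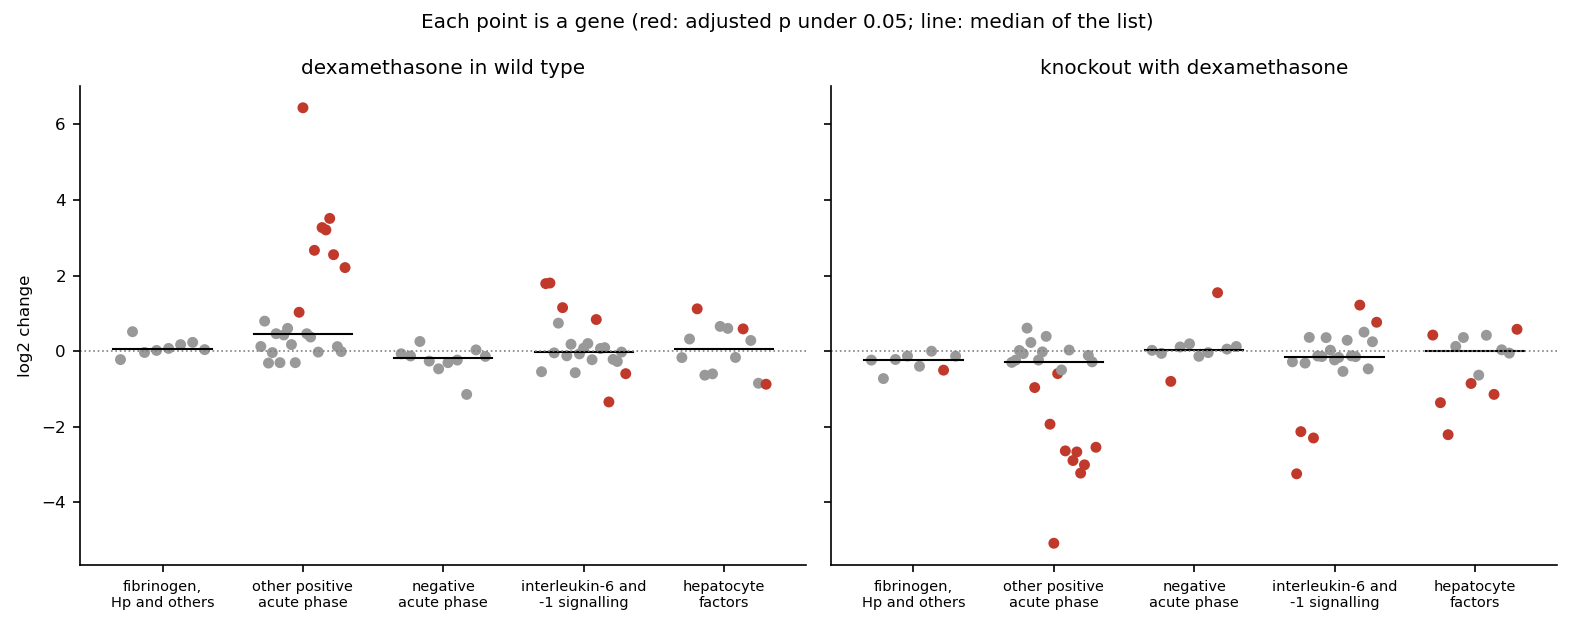
Log2 changes of the 8 genes and of 4 lists in wild type given dexamethasone (left) and in knockout against wild type with dexamethasone (right), 1 point per gene, red where the adjusted p is under 0.05 and a line at the list median. On the left the 7 genes other than Hp, whose point is a bound in both panels, lie between -0.22 and 0.51, while Lcn2 reaches 6.44 in the list of other positive acute phase genes.

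Dexamethasone in the knockout asks what remains of the response when the receptor gene is disrupted in liver. Again 0 of the 8 were called, beside 3.55% of all genes (adjusted p from 0.371 to 0.928), and 0 had an unadjusted p under 0.05, beside 16.7%. Estimates ran from -0.12 to 0.50, 5 of 8 above 0, with a median of 0.09 beside 0.00 for all genes. Groups of 0 of the 8 stayed apart, beside 9.6%. Fga was at 4.49, 5.51, 6.01 and 5.10 on untreated knockout arrays and 5.76, 5.19, 5.75 and 6.38 with dexamethasone. Knockout array 1, of low 75th percentile, was the lowest of all 16 for Fga. The difference of 0.50 (95% interval -0.14 to 1.13, adjusted p = 0.444) was 0.23 without it and 0.29 without dexamethasone array 4.

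For the other fibrinogen chains the differences were -0.04 (Fgb, 95% interval -0.38 to 0.29) and 0.07 (Fgg, -0.20 to 0.34). Hp, saturated on none of these 8 arrays, was at 10.54, 9.55, 9.54 and 9.39 untreated and 9.74, 9.58, 9.63 and 9.72 with dexamethasone (difference -0.09, 95% interval -0.59 to 0.42). Apart from untreated array 1, the dexamethasone arrays were the higher ones, and without that array the difference was 0.17. Itih3 differed by 0.28 (95% interval -0.04 to 0.61) and Itih4 by 0.37 (-0.24 to 0.97). Without dexamethasone array 4 Itih4 was at 0.05 and Itih3 at 0.18, without dexamethasone array 2 Itih4 was at 0.60, and without untreated array 4 Itih3 was at 0.16. Hpx and Cp were at 0.12 and -0.12, and without untreated array 1 Hpx was at 0.30.

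Among the pathway lists 1 gene was called in the knockout, Osmr, the oncostatin M receptor, which rose by 0.94 (adjusted p = 0.0309). It lost its call in 5 of 8 cases without 1 array (adjusted p up to 0.087). Of the 23 other positive acute phase genes 0 were called, with 2 at an unadjusted p under 0.05 and a median of 0.29. Lcn2 was at 1.67 (95% interval -0.32 to 3.66).

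The interaction compares the response between genotypes (knockout minus wild type) and uses the same arrays as both comparisons above. Of the 8 genes 0 were called, beside 4.58% of all genes, and 0 had an unadjusted p under 0.05, beside 16.6%. Estimates of the 7 genes other than Hp ran from -0.05 to 0.33 for Itih4 (95% interval -0.53 to 1.19), with a median of 0.05 beside 0.04 for all genes, and adjusted p from 0.802 to 0.996. For Fgb the interval was -0.48 to 0.47, for Fgg -0.33 to 0.44 and for Fga -0.92 to 0.89. The value of Itih4 ran from 0.01 to 0.56 without 1 array (knockout arrays 4 and 2 given dexamethasone). Hp is not read here, since its wild-type response is a bound. Of the 23 other positive acute phase genes 2 were called lower, Saa4 (-2.60, adjusted p = 0.0389) and Orm3 (-3.72, adjusted p = 0.0242). Leaving out 1 array ended the call of Saa4 in 13 of 16 cases and of Orm3 in 4 of 16, with adjusted p up to 0.084 and 0.057. In the other lists Serpinf2 (0.60), Hmox2 (-0.62) and Atp7b (1.22), the copper pump that loads ceruloplasmin, were called, and without 1 array each lost its call in at least 13 of 16 cases.

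**Figure D4:**
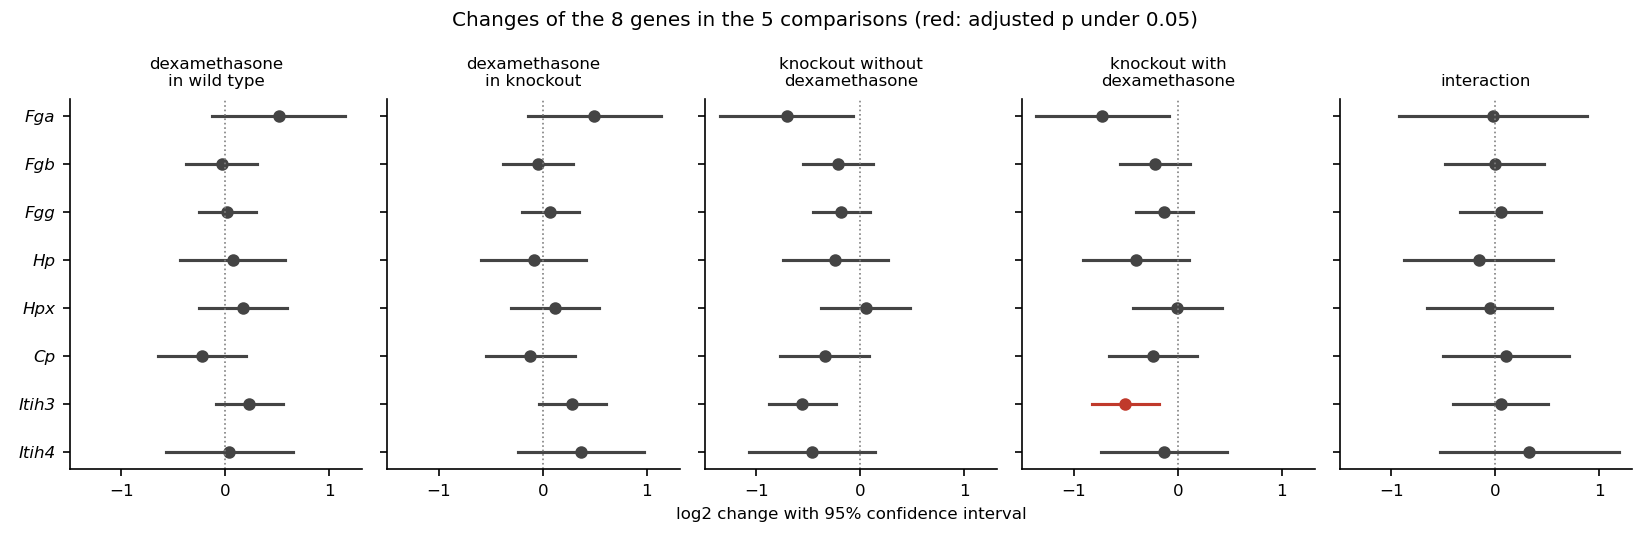
Log2 change of each of the 8 genes with its 95% interval in the 5 comparisons, red where the Benjamini-Hochberg adjusted p of limma is under 0.05. Intervals are widest for Fga and Itih4, and the red point is Itih3 in knockout against wild type with dexamethasone, at -0.50. Hp in wild type given dexamethasone is a bound, which its points in the comparisons with that group carry.

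Knockout against wild type without dexamethasone compares the genotypes at baseline. Estimates were below 0 for 7 of the 8 genes, all but Hpx, with a median of -0.29 beside 0.05 for all genes. None was called (adjusted p from 0.0611 to 0.925), beside 2.83% of all genes, or 0.79% called lower. At an unadjusted p under 0.05 there were 2, Fga and Itih3, beside 19.4% of all genes. The groups stayed apart for Itih3 only, beside 11.6%.

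Itih3, a heavy chain of the inter-alpha-trypsin inhibitor, was at 7.56, 7.46, 7.50 and 7.88 in untreated wild type. In the untreated knockout it was at 7.14, 7.23, 7.14 and 6.65, below every wild-type array. The difference was -0.56 (SE 0.15, 95% interval -0.88 to -0.24, adjusted p = 0.0611), which missed the threshold. It passed with a trended robust variance (adjusted p = 0.044) and with array weights (-0.43, adjusted p = 0.045). The neighbouring Itih4 was at 4.41 to 4.82 and 3.75 to 4.48, and differed by -0.46 (95% interval -1.07 to 0.15).

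Fga, at 5.72 to 6.45 in wild type and 4.49 to 6.01 in the knockout, differed by -0.71 (95% interval -1.35 to -0.07, adjusted p = 0.210). Knockout array 1 gave the lowest value and array 3 the highest, and without array 1 the difference was -0.45 (adjusted p = 0.410). Fgb and Fgg differed by -0.22 (95% interval -0.55 to 0.12) and -0.18 (-0.46 to 0.09). The widest spread within the group was that of Fga, with an SD of 0.64 against 0.27 for Fgb and 0.18 for Fgg.

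Hp differed by -0.24 (95% interval -0.75 to 0.26) and Cp by -0.34 (-0.77 to 0.09), while Hpx was at 0.05 (-0.37 to 0.48). Knockout array 1 was the highest of its group for all 3. Without it Hp was at -0.50 and Cp at -0.53, and without wild-type array 4 they were at -0.04 and -0.19. Fgb was at -0.08 without wild-type array 4 and at -0.34 without knockout array 1. In unscaled signal Hp was 469152 to 596698 in wild type and 383001 to 440285 in the knockout, and Cp was 76974 to 84325 and 55859 to 66639. These ranges stay apart, unlike the scaled ones of Hp and Cp. Unscaled ranges also stay apart for Itih3 and overlap for Fga, Fgb, Fgg, Hpx and Itih4. The share of all genes whose unscaled ranges stay apart was not computed, and unscaled signals also carry the brightness of the array. With no scaling between arrays the differences were -0.33 for Hp and -0.42 for Cp, and neither was called (adjusted p = 0.317 and 0.162).

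Other genes of the pathway fell in this comparison, in which 0.79% of all tested genes were called lower. Il6ra fell by 1.37 (adjusted p = 0.0146) and Cebpd by 1.95 (adjusted p = 0.00493), as the called genes of 21 and 12 in their lists. Plg, plasminogen, fell by 0.64, Hmox2 by 0.55, and Apoa1, the main protein of high-density lipoprotein, by 0.88. Of the 23 other positive acute phase genes 0 were called, with 5 at an unadjusted p under 0.05 and a median of -0.32. Without 1 array the calls were lost in 1 of 8 cases for Il6ra, Hmox2 and Apoa1 and in 2 of 8 for Plg. Hepatocyte markers moved as well: 2 of 9, Apoa1 and Cps1 (a urea cycle enzyme), fell, with a median of -0.39 over the 9. Markers of other cells had medians of 0.85 for the 4 neutrophil genes tested (0 called) and 0.78 for 6 B cell genes (1 called, Pax5). The medians were 0.66 for 5 platelet genes (0 called) and 0.46 for 8 Kupffer cell genes (0 called). T and NK cell, cholangiocyte, stellate cell and erythroid lists had medians of 0.45, 0.35, 0.32 and 0.23, with 0 called. Sinusoidal endothelium was at 0.09, with 0 called, beside 0.05 for all genes. The summed level of the Kupffer cell genes was 29.3 to 44.3 in wild type and 36.1 to 77.0 in the knockout. Those of the neutrophil, B cell and platelet genes were at most 4.56 on the arrays of either group. The part of these cells in the values of the 8 genes was not tested. The copper genes and the inter-alpha-trypsin partners had 0 of 8 and 0 of 4 called, and 0 in either at an unadjusted p under 0.05.

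With dexamethasone in both genotypes, 1 of the 8 genes was called, Itih3, beside 22.3% of all genes, or 8.28% called lower. The estimates of the 7 genes other than Hp were all below 0, from -0.73 for Fga to -0.00 for Hpx, with a median of -0.22 beside 0.09 for all genes, and Hp, a bound, was below 0 too. At an unadjusted p under 0.05 there were 2, Fga and Itih3, beside 35% of all genes. Arrays of the genotypes stayed apart for 2, Itih3 and Hp, beside 31.6%. Counted in either direction, at an unadjusted p or by lack of overlap, the share of the 8 lay below that of all genes. The comparison shares its arrays with both dexamethasone comparisons.

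Itih3 was at 7.71, 7.84, 7.90 and 7.87 in wild type and 7.18, 7.20, 7.29 and 7.63 in the knockout. Knockout array 4 came closest to the wild-type arrays, and the groups did not overlap. Itih3 was 1.42-fold lower in the knockout (log2 -0.50, SE 0.15, 95% interval -0.83 to -0.18, adjusted p = 0.0270). The call depends on the arrays: without wild-type array 2, 3 or 4 the adjusted p was 0.057, 0.064 and 0.060, and without knockout array 1, 2 or 3 it was 0.072, 0.073 and 0.064. It was kept without wild-type array 1 (0.041) and knockout array 4 (-0.61, 0.013). By quantile normalization the change was -0.36 (adjusted p = 0.122), with scaling to the 99th percentile -0.39 (0.085), with no scaling -0.49 (0.168) and with no filter on dim probes -0.50 (0.053).

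By the measured means Hp was 1.32-fold higher in wild type than in the knockout, where it was saturated on 0 of 4 arrays (means 10.067 and 9.667, limma adjusted p = 0.248). Saturation makes this fold a bound for the measured samples only, and it does not cover the error of sampling or scaling. Over the alternatives the log2 difference of Hp ran from -0.51 to -0.28. Its wild-type arrays lay at 9.95 to 10.14 and its knockout arrays at 9.58 to 9.74. The ceiling limits the spread of the wild-type arrays, whose SD was 0.08, so p-values of Hp in this comparison, also those under alternatives in which it passed, carry no information on its size or error.

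Fga differed by -0.73 (SE 0.30, 95% interval -1.37 to -0.09, adjusted p = 0.0969), at 6.27 to 6.81 in wild type and 5.19 to 6.38 in the knockout. Knockout array 4, at 6.38, lay inside the wild-type range. Without that array the difference was -0.93 (adjusted p = 0.044), without the 2 arrays of low 75th percentile the adjusted p was 0.046, and with array weights it was 0.011. Fgb and Fgg differed by -0.22 (95% interval -0.56 to 0.12) and -0.13 (-0.40 to 0.14), so a fall beyond 1.47-fold for Fgb or 1.32-fold for Fgg lies outside the intervals. Cp was at -0.24 (-0.67 to 0.19), Itih4 at -0.13 (-0.74 to 0.47) and Hpx at -0.00 (-0.43 to 0.42). Without 1 array Itih4 ran from -0.45 to 0.10. Itih4 on knockout array 4 reached 5.55, while knockout arrays 1 and 2 were at 4.11 and 3.89.

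Genes of the pathway lists were called too, beside 14% of all genes called higher and 8.28% called lower. Of the 23 other positive acute phase genes, 10 were lower in the knockout and 0 higher, with a list median of -0.30. On the log2 scale Lcn2 was at -5.09, and Saa3, Saa4 and Saa1 were at -3.23, -3.01 and -2.90. Il1r1 was at -3.25, Il6ra at -2.30 (adjusted p = 7.29e-05) and Il1r2 at -2.13, and Socs1 was higher at 1.22, among 3 lower and 2 higher of 21. By normexp background correction Il1r2 was at -0.06 (adjusted p = 0.899).

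Of the 12 hepatocyte factors 4 were lower and 2 higher. Cebpd was at -2.21, Cebpb at -1.37, Hnf4a at -1.15 and Foxa3, a pioneer factor of hepatocyte genes, at -0.86. Of the heme genes, Hmox2 was lower (-1.17) and Hmox1 and Slc48a1, a heme transporter, were higher (0.82 and 0.67). Of the copper genes, Atp7b and Slc31a2 were higher (1.20 and 0.42). Without 1 array the calls of Hmox1 and Slc31a2 were lost in 5 and 3 of 8 cases. Of the negative acute phase genes, Serpina6, the corticosteroid-binding globulin, was higher (1.55) and Apoa1 lower (-0.80). Fibrin formation and lysis had 0 of 11 called, with 4 at an unadjusted p under 0.05, and the inter-alpha-trypsin partners had 0 of 4 and 0. Of the 9 hepatocyte markers 4 were lower, Cps1 (-1.28), Hnf4a, Apoa1 and Cyp2e1 (-0.53), with a median of -0.35. Of 4 neutrophil genes 1 was higher (Ltf) and 4 had an unadjusted p under 0.05, with a median of 1.36 and a summed level of 0.305 to 0.723 in wild type and 0.517 to 2.24 in the knockout. Of 6 B cell genes 2 were higher (Cd79a and Pax5), with a median of 0.41, and of 8 Kupffer cell genes 0 were called, with a median of 0.33. Markers called in other lists were Alas2 (erythroid, higher), Cd3e (T cell, lower) and Krt7 (cholangiocyte, lower). The part of these cells in the values of Itih3, Hp and Fga was not tested.

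Across the 4 groups the order of the mean levels was the same for Itih3, Fga, Fgg and Itih4. Wild type given dexamethasone was highest, then untreated wild type, the knockout given dexamethasone and the untreated knockout. In that order the means were 7.83, 7.60, 7.33 and 7.04 for Itih3 and 6.50, 5.98, 5.77 and 5.28 for Fga. They were 9.62, 9.61, 9.49 and 9.42 for Fgg and 4.73, 4.69, 4.59 and 4.23 for Itih4. Neighbouring groups in that order overlapped in their arrays for each of these genes. For Cp untreated wild type was highest (7.33) and the knockout given dexamethasone lowest (6.86). Hp had its highest mean in wild type given dexamethasone (10.067, a bound), then 9.996 in untreated wild type, 9.76 in the untreated knockout and 9.67 in the knockout given dexamethasone. Fgb means ran from 9.97 in untreated wild type to 9.71 in the knockout given dexamethasone, and Itih4 means from 4.73 in wild type given dexamethasone to 4.23 in the untreated knockout. Hpx means lay within 8.71 to 8.88 and Fgg means within 9.42 to 9.62.

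The genes whose levels ran most like each member over the 16 arrays were taken among 15042 genes above background and unsaturated throughout, by Pearson correlation. Itih3 ran most like BI329779, an expressed sequence tag (0.947), and Apoa1 (0.945). Fga ran like Snx16 and Tars (both 0.932). Fgb ran most like Npat (0.903) and Fgg most like TC1514012 (0.880), and both had Trir next (0.873 and 0.857). Hp ran most like Chrne (0.939) and Cp most like 1300017J02Rik (0.931). Both had Vtn, vitronectin, an abundant plasma protein, next (both 0.927). The values of Hp include its saturated arrays. Hpx ran most like Lhx1 (0.947) and then B3galt4 (0.917), and Itih4 like Ctsf (0.909) and then LOC245436 (0.904). The arrays share group and scale, and the arrays of low 75th percentile enter these values, so they are descriptions only.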

How the data were processed

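Each array carried 45018 spots, of which 1639 were controls, and 41174 transcript probes. Scans were read by the authors with Feature Extraction software, version 9.5 according to the submitters' processing notes. Per the file headers, the processed signal they deposited is an intensity from which background and a spatial trend were removed on each array separately. No scaling between arrays was applied to it, and the deposited series table differed from it by 0. Mean and background signals were deposited as intensity values too, and flags, of the class other, mark saturation, background level and outliers per the file headers. Probes were named by RefSeq accession (23082), symbol (6582) or synonym (3073), and 8437 kept the name in the file.

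Here controls were dropped, spots with an outlier flag were treated as missing, and repeated spots of a probe were averaged on the log2 scale. The 75th percentile of each array was subtracted. Probes well above background on 3 of 4 arrays of any group were kept. A gene was represented by its brightest probe, or, where that was saturated, by its brightest unsaturated probe if any. Limma 3.58.1 (R 4.3.3) fitted the 4 group means over 16 arrays, two-sided, with Benjamini-Hochberg adjustment over all 18474 genes of a comparison, and a gene was called at an adjusted p under 0.05. Every adjusted p in the text comes from limma. Where a group is saturated throughout, a fold is given as a bound from the measured means, which does not cover the error of sampling or scaling.

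Members and lists were chosen with earlier results of these data known. Named were all members, Nr3c1, up to 4 called genes by size and up to 2 uncalled genes per pathway list and comparison, and the 2 genes most like each member; genes of marker lists and those counted in groups of 5 or fewer were named after their values were seen. Data were simulated for dexamethasone in wild type (18450 genes, 200 of them changed, 5 draws), with independent noise and no array effects. There 56.2% of genes with a log2 change of 1 and 88.4% of those with a change of 2 were recovered, so smaller changes could be missed. Of the calls 5.12% were false. The real comparison called 11.9% of genes and had arrays of unlike scale, so these rates are not those of the real data. Residuals of arrays with the same replicate number correlated between -0.186 and 0.347 (24 pairs, 10 over 0.1). Arrays of unlike numbers were not correlated, so these values cannot show whether the numbers mark pairs. The numbers were not taken as pairs in the main fit. With the replicate number as a block, knockout against wild type without dexamethasone called 770 genes, against 522. Plots used Python 3.11.15 and matplotlib 3.10.9.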

Additional observations from a re-analysis of the deposited data

Results flagged for a closer look

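Within the 32 sets of 4 arrays (8 genes in 4 groups), 6 had an array whose gap to its nearest neighbour exceeded the critical share of the range, 0.829, of Dixon's test for 4 values. At its 95% level chance alone marks about 1 in 20 sets. Of the 6, 5 fall on the 2 arrays of low 75th percentile. On untreated wild-type array 4, Fgg was highest at 9.89 (others 9.49 to 9.54) and Hpx at 9.17 (others 8.50 to 8.60), while Itih4 was lowest at 4.41 (others 4.75 to 4.82). The unscaled signal of Fgg there, 364674, was below those of the other 3 (366276 to 453523), and that of Hpx, 220845, lay among them (196186 to 229299). On untreated knockout array 1, Hp was highest at 10.54 (others 9.39 to 9.55) and Hpx at 9.31 (others 8.52 to 8.63), with unscaled signals of 440224 (others 383001 to 440285) and 188072 (others 209417 to 220471). Itih3 was lowest on untreated knockout array 4, at 6.65 (others 7.14 to 7.23). The part of the array scale in these values was not tested.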

How the results depend on the processing

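The comparisons of dexamethasone in wild type, in knockout and their interaction called 0 of the 8 genes under all alternatives that were run, each array left out in turn included. Knockout against wild type without dexamethasone called 0, and 1 (Itih3) with a trended robust variance and 1 with array weights. With dexamethasone it called 1 (Itih3), and 0 by quantile normalization, 0 with no filter on dim probes, 3 with array weights (Fga, Hp and Itih3), 2 with only the groups compared (Hp and Itih3) and 0 at a threshold of 2-fold. Without 1 array at a time that count ran from 0 to 2, and the cause was not tested. In 3 alternatives chosen after the data were seen, it was 0 with no scaling between arrays, 0 with scaling to the 99th percentile and 3 (Fga, Hp and Itih3) without the 2 arrays of low 75th percentile. In the fit with the replicate block, the adjusted p of Itih3 in that comparison was 0.047, and the count stayed at 1. Setting saturated spots to missing gave no value for Hp in the comparisons with wild type given dexamethasone.

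With no scaling the median of all genes was 0.11 for dexamethasone in wild type, 0.25 in knockout and 0.13 for the interaction, and with the 99th percentile it was 0.14 and 0.21 for knockout without and with dexamethasone. Among all called genes, the share higher went from 43.9% to 72.0% (no scaling) for dexamethasone in wild type, and from 34.6% to 72.0% (no scaling) or 46.1% (99th percentile) in knockout. It went from 72.0% to 87.8% and from 62.9% to 77.2% (99th percentile) for knockout without and with dexamethasone. By normexp it was 54.1% in the former, and 27.1% against 41.9% in the interaction. Arrays moved it too: without untreated knockout array 1 it was 65.6% for dexamethasone in knockout, 58.0% in the interaction and 49.9% for the untreated knockout, and with array weights 57.3%, 56.8% and 60.8%. Counts over all genes ranged without 1 array over 1211 to 2204, 304 to 946, 486 to 1501, 151 to 620 and 2922 to 3683 in the order of the report, against 2194, 656, 847, 522 and 4120.

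By normexp they were 1196, 47, 107, 85 and 2360, with array weights 5017, 1812, 2742, 1542 and 6688, and at 2-fold 822, 429, 723, 319 and 1817. Other counts more than 1.5 times away were 1091 (quantile normalization), 398 (no filter), 134 (only the groups compared) and 1092 (without the 2 arrays of low 75th percentile) for dexamethasone in knockout. They were 1201 (no scaling) and 3398 (without those 2 arrays) in wild type, 547 (no filter) and 1523 (without those 2 arrays) for the interaction, and 261 (no filter), 80 (only the groups compared) and 1015 (99th percentile) for the untreated knockout. Saturation limits Hp, so that its calls above are not read, and signals close to the ceiling limit what can be read from Fgb. Of 47 calls of a named gene in a comparison, 20 were lost under at least 1 alternative and 18 without at least 1 array, and 0 reversed. Besides Itih3 the former were Hnf4a, Il1r2, Serpinf2, Hmox2 and Ppara for dexamethasone in wild type, Osmr in knockout, and Atp7b, Hmox2, Saa4 and Serpinf2 in the interaction. For the genotypes they were Apoa1, Hmox2, Il6ra and Plg without dexamethasone, and Hmox1, Il1r2, Slc48a1, Slc31a2 and Foxa3 with it. The cause was not tested.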
